A study of Schizosaccharomyces pombe with 9 samples.

Results

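Fission yeast (Schizosaccharomyces pombe) lacking aps1 was compared directly with fission yeast carrying the D333A allele of asp1, using 3 poly(A)+ RNA-seq libraries of each strain. These 6 libraries were chosen by the strain given in their titles from a series of 9. The remaining 3 libraries, from a WT strain, were left out of the fit and serve below only to place the levels of the mutants. All cultures were grown to log phase at 30 °C in YES, a rich medium, under vegetative growth. Each mutant is represented by a single strain. The labels give a strain number for each but neither the mating type nor the auxotrophic markers, and they speak of replicate experiments without saying that these were separate cultures, so p-values measure the spread between these libraries, which may be technical. The series addresses whether inositol pyrophosphates act on phosphate homeostasis through RNA 3′ processing and the termination of transcription.

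Inositol pyrophosphates are signalling molecules in which an inositol ring carries a diphosphate group. Asp1 makes one of them with its kinase domain, and the D333A change inactivates that kinase; Aps1 is a hydrolase of the Nudix family that breaks inositol pyrophosphates down. The contrast therefore sets loss of a pyrophosphatase against loss of a kinase that act in opposite directions on the same molecules. In fission yeast the genes for phosphate uptake are kept low in rich medium by transcription of long non-coding RNAs upstream of them, and where that transcription ends is one point at which inositol pyrophosphates have been placed.

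The 6 libraries held between 19484017 and 22999732 counts, of which 98.27% to 98.85% fell on protein-coding genes. In a principal component analysis the strains separated on component 1, which held 85.5% of the variance. Within a strain the libraries correlated at 0.990 to 0.996 across genes, which are not independent replicates, and asp1-D333A replicate 3 stood farthest from its group, with a chi-square statistic per gene of 62.1 and 75.2 against its partners where the other within-strain pairs had 4.29 to 20.21. Effective library sizes also differed by strain, with TMM scaling factors of 0.906 to 0.982 for the aps1 deletion libraries against 1.059 to 1.092 for those of asp1-D333A. The genes for M-factor, the pheromone of M cells, and markers of P cells were both detected in both strains. The summed level of 9 M markers was 335 to 361 CPM (counts scaled to library size) in the aps1 deletion against 222 to 276 CPM in the other strain, with mat1-Mc and mat1-Mi at 0, and that of 4 P markers was 806 to 942 CPM and 783 to 969 CPM. The 12 sporulation markers summed to 303 to 310 CPM and 313 to 321 CPM. No read was assigned to ura4 in any of the 6 libraries.

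The targeted genes were examined first. Counts for aps1 were 224, 137 and 155 in the deletion strain against 1827, 2073 and 2131 in asp1-D333A, a log2 difference of -3.19 ± 0.14 (SE). Its adjusted p was 1.9e-08, taken, like every adjusted p below, from the quasi-likelihood F test of edgeR and corrected by Benjamini-Hochberg over all features. The deletion strain was low in each library, yet its counts did not reach 0; aps1 overlaps the non-coding RNA SPNCRNA.620 on the opposite strand. Transcripts of asp1 do not report on a point mutation, and their level was 66.4, 63.1 and 60.9 CPM in the aps1 deletion against 49.0 to 66.7 CPM in asp1-D333A. The ranges overlapped through asp1-D333A replicate 3, and the difference of 0.20 ± 0.12 did not pass (adjusted p = 0.15); without that library it was 0.36 (adjusted p = 0.00042), and it was negative, at -0.02, under upper-quartile scaling. Of the 10 measured genes of inositol polyphosphate metabolism, 4 were higher in the aps1 deletion besides the loss of aps1 itself: kcs1, a second inositol polyphosphate kinase (0.62 ± 0.07), the inositol transporter itr1 (0.43 ± 0.07), the phosphatidylinositol synthase pis1 (0.32 ± 0.10) and siw14, another pyrophosphatase (0.25 ± 0.07). These 4 are 40% of the list, near the 39% of all coding genes that were higher. Under upper-quartile scaling 2 of the 10 were higher and 4 lower.

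Of 6105 features tested, 4105 (67.2%) were called, which means an adjusted p under 0.05. The deletion strain was higher for 2027 features (33.2%) and lower for 2078 (34%). With at least 2-fold difference there were 919 (15.1%), 234 (3.83%) higher and 685 (11.2%) lower. An unadjusted p under 0.05 was reached by 70.2% of features and 70.1% of coding genes, and CPM did not overlap between strains for 70.7% and 70.5%. Differences are given throughout as log2 of the aps1 deletion over asp1-D333A, so that positive values are higher in the deletion. Among the 4968 protein-coding genes tested, 3330 (67%) were called, 1939 (39%) higher and 1391 (28%) lower in the aps1 deletion, with a median over all coding genes of 0.07. At least 2-fold differences were called for 439 coding genes (8.84%), 204 (4.11%) higher and 235 (4.73%) lower; at 4-fold the numbers were 15 and 62. The split depended on scaling, since the share of coding calls that were higher was 58.2% with TMM but 36.6% with upper-quartile scaling and 38.7% with total counts, settings which moved the median of all features from -0.03 to -0.25 and -0.23. WT lay between the 2 mutant means for 175 of the 204 coding genes that were at least 2-fold higher in the aps1 deletion and for 206 of the 235 that were lower. The remaining features, mostly non-coding RNAs, leaned one way: 687 of 1137 were lower in the aps1 deletion, 88 were higher, and their median was -0.76.

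Phosphate acquisition had the highest median difference of the 38 function and marker lists. All 10 listed genes were tested, 9 were higher in the aps1 deletion by at least 2-fold, and the list's median was 1.43 against 0.07 for all coding genes. The acid phosphatase pho1, which releases phosphate outside the cell, stood at 7050, 8470 and 8640 CPM in the aps1 deletion, against 130, 138 and 84.2 CPM in asp1-D333A. No other coding gene was as far apart in this direction: the difference was 6.10 ± 0.21 on the log2 scale, 68.7-fold by the means (adjusted p = 4.2e-09), and WT, at 2440 CPM, lay between. The phosphate transporter pho84 had 3160, 3450 and 3440 CPM against 90.4, 90.8 and 77.9 CPM, a difference of 5.28 ± 0.12 (adjusted p = 3.2e-10). Libraries of each strain lay close together for this gene, and WT at 1230 CPM was again between; pho84 overlaps SPBC8E4.02c. The glycerophosphodiester transporter tgp1 had 125, 188 and 179 CPM against 22.9, 22.1 and 15.2 CPM, which is 3.03 ± 0.20 (adjusted p = 2.3e-06). For tgp1 the WT mean of 23.3 CPM sat close to asp1-D333A, at 19.9 CPM on the same scale, and far below the deletion at 163 CPM; tgp1 overlaps SPBC1271.10c on the other strand.

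The smaller differences in the list covered transport, storage and recycling of phosphate. The related transporters pho841 (1.68 ± 0.09) and pho842 (1.17 ± 0.11) were higher, as were all 3 genes of the vacuolar complex that makes polyphosphate, vtc2 (1.44 ± 0.08), vtc4 (1.30 ± 0.09) and nrf1 (1.11 ± 0.10). The phosphodiesterase gde1, which frees glycerophosphate from its esters, had 104 CPM in each library of the deletion and 33.0 to 43.5 CPM in asp1-D333A, a difference of 1.42 ± 0.10. Transcripts of pho7, which encodes the transcription factor that activates pho1, pho84 and tgp1, were at 192 to 225 CPM and 212 to 248 CPM. They overlapped, and the difference of -0.16 ± 0.08 did not pass (adjusted p = 0.098).

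**Figure D1:**
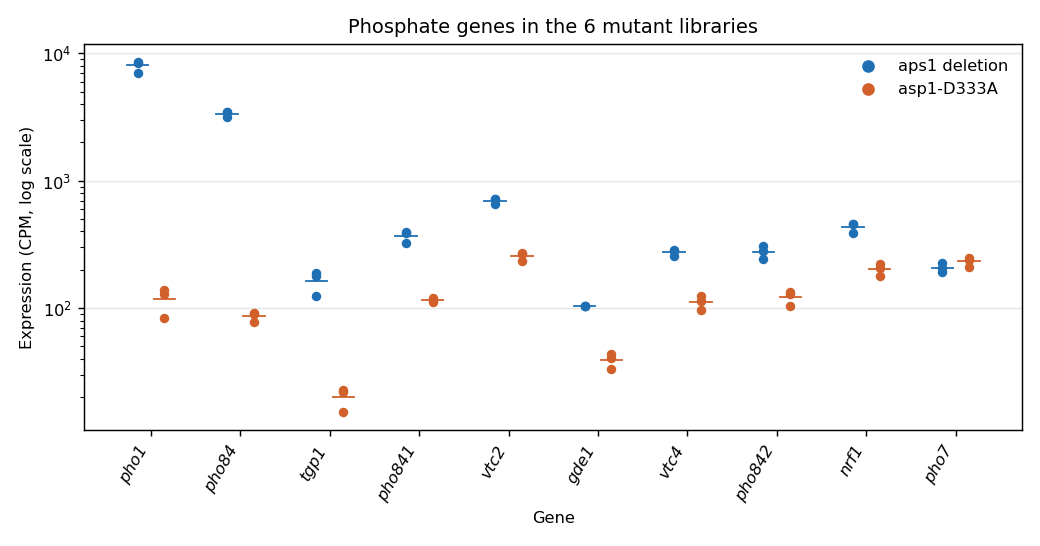
Level of each phosphate gene (CPM, log scale) in the 3 aps1 deletion libraries (blue) and the 3 asp1-D333A libraries (orange), with short lines at the means and genes ordered by log2 difference. The strains are apart for 9 genes and overlap for pho7, whose adjusted p is 0.098.

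Promoters are shown where a searched motif occurs, so that the letters can be read beside the values. Windows of 300 bases before the annotated transcript start of 5107 coding genes were searched on both strands of the RefSeq genome ASM294v3. The consensus of Pho7 occurred in 3 of the 10 phosphate promoters and in 110 (2.15%) of all. Below, the 200 bases before the start are printed 5′ to 3′ on the gene's strand with matches in capitals. They are pho1 at chrII:4447306-4447505 (forward strand), with matches beginning 187 and 155 bases before the start, tgp1 at chrII:352412-352611 (reverse), with 1 match at 192 bases, and pho842 at chrI:4362268-4362467 (forward), with 1 match at 102 bases.
pho1: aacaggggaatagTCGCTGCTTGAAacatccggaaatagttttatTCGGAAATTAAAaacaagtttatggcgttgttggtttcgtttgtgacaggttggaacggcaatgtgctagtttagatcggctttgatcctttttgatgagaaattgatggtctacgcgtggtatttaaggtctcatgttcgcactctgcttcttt
tgp1: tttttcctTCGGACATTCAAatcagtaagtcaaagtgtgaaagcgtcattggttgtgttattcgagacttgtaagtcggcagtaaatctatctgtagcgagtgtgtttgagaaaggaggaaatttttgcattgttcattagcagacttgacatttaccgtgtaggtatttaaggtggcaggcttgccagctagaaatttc
pho842: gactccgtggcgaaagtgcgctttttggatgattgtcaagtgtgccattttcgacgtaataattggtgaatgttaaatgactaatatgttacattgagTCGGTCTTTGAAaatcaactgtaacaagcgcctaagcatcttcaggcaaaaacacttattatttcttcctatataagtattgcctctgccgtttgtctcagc
The other phosphate promoters, pho84 among them, had no match in the window searched. A match alone did not go with the direction of the difference: of 99 genes tested with one, 37 were higher and 29 lower, with a median of -0.01.

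Iron acquisition moved the other way. Of 16 listed genes 10 were lower in the aps1 deletion, 7 of them by at least 2-fold, 1 was higher, and the median was -0.94. The siderophore transporter str3 had 5, 4 and 3 counts in the aps1 deletion against 509, 538 and 618 in asp1-D333A. That difference, -6.72 ± 0.19 (adjusted p = 1.5e-09), was the lowest among coding genes without a near-identical copy, and WT, at 0.392 CPM, was near the deletion at 0.213 CPM rather than asp1-D333A at 23.2 CPM. A second siderophore transporter, str1, had 15.4, 29.0 and 24.3 CPM against 445, 470 and 344 CPM (-4.20 ± 0.25, adjusted p = 1.0e-05). The reductive pathway was lower in all 4 of its genes. These were the ferric reductases frp1 (-3.78 ± 0.18) and frp2 (-1.27 ± 0.19), the multicopper oxidase fio1 (-3.08 ± 0.12) and its partner permease fip1 (-2.56 ± 0.11). The haem-binding protein gene shu1 was almost silent in the deletion, with 0, 2 and 1 counts against 45, 41 and 22.

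Regulators and the rest of the iron list differed less. The gene for Php4, a repressor that shuts off iron-using genes when iron is short, was lower (-0.99 ± 0.11), as were those for the glutaredoxin Grx4 (-0.81 ± 0.07) and the vacuolar transporter Abc3 (-0.89 ± 0.08). Transcripts of fep1, encoding the GATA-type repressor of iron uptake, overlapped between strains at 148 to 170 CPM and 139 to 196 CPM (adjusted p = 0.29). The siderophore synthesis genes sib1, sib2 and sib3 did not pass, with differences of 0.03 to 0.12. Nor did a further siderophore transporter, str2 (0.14, adjusted p = 0.15). The single member that was higher, the iron transporter pcl1, differed by 0.19 ± 0.06 and turned to -0.03 under upper-quartile scaling. The GATA letters GATAA were found in 13 of the 16 promoters, but also in 60.6% of all. Among metal genes outside the iron list, the metallothionein zym1 was lower (-1.38 ± 0.11) and the zinc transporter zrt1 higher (1.22 ± 0.32); zrt1 was at 210 CPM in aps1 deletion replicate 2 and at 434 to 458 CPM in the others, and without asp1-D333A replicate 3 it did not pass (adjusted p = 0.11).

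**Figure D2:**
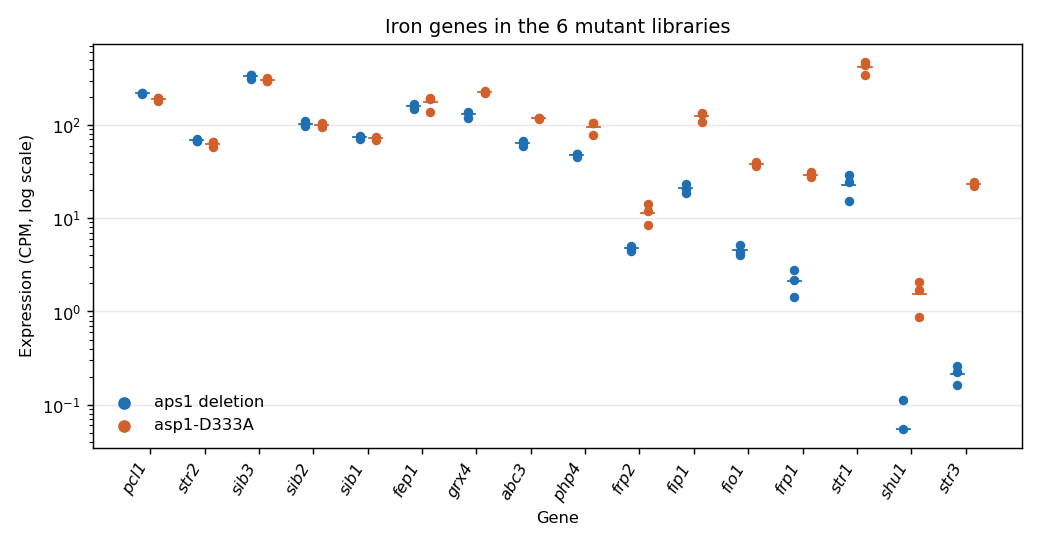
Level of each iron gene (CPM, log scale) by library, drawn as for the phosphate genes; 1 aps1 deletion library with no count for shu1 cannot be drawn on the log axis. The uptake genes on the right lie below asp1-D333A in every aps1 deletion library, with str3 at -6.72 on the log2 scale, while sib1, sib2 and sib3 overlap.

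The coding genes furthest apart, ranked by the rule for named genes, mixed these functions with others. On the higher side SPBPB2B2.06c, annotated as a phosphoprotein phosphatase, had 115, 124 and 126 CPM against 1.61, 1.44 and 4.98 CPM, a difference of 5.48 ± 0.40. Here asp1-D333A replicate 3 was the highest of its group, and without it the difference was 6.32. The small protein gene ecl3, a relative of the lifespan gene ecl1, was 19.0-fold higher (4.25 ± 0.15), and ecl1 itself was lower by -3.19 ± 0.35. Others on this side, besides genes described with their lists, were mfs3, annotated as a spermidine family transporter (2.64 ± 0.12), the thioesterase gene the4 (2.36 ± 0.07), SPBC25B2.08, which is uncharacterized (2.29 ± 0.14), and isp4, an oligopeptide transporter (2.18 ± 0.08).

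On the lower side cmt2, a catechol O-methyltransferase gene, had 1.65, 0.955 and 0.981 CPM against 58.0, 59.4 and 62.1 CPM (-5.63 ± 0.16, adjusted p = 1.5e-09). WT at 2.57 CPM was near the deletion. The ddr48 gene had 1.96, 2.53 and 2.13 CPM against 84.6, 87.9 and 50.7 CPM (-5.08 ± 0.25). Further down were SPCC737.04 (-3.84 ± 0.10), mug108 (-3.77 ± 0.21), meu27 (-3.71 ± 0.26) and the Con-6 family gene SPAC11D3.01c (-3.58 ± 0.12). For SPBC23G7.13c, annotated as a urea transporter, and SPCC70.08c, a methyltransferase, the third asp1-D333A library was lower than its partners, at 3.86 CPM where they had 13.6 and 12.1, and at 122 CPM where they had 255 and 262. The differences, -3.39 ± 0.57 and -3.15 ± 0.34, became -3.77 and -3.42 without it.

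**Figure D3:**
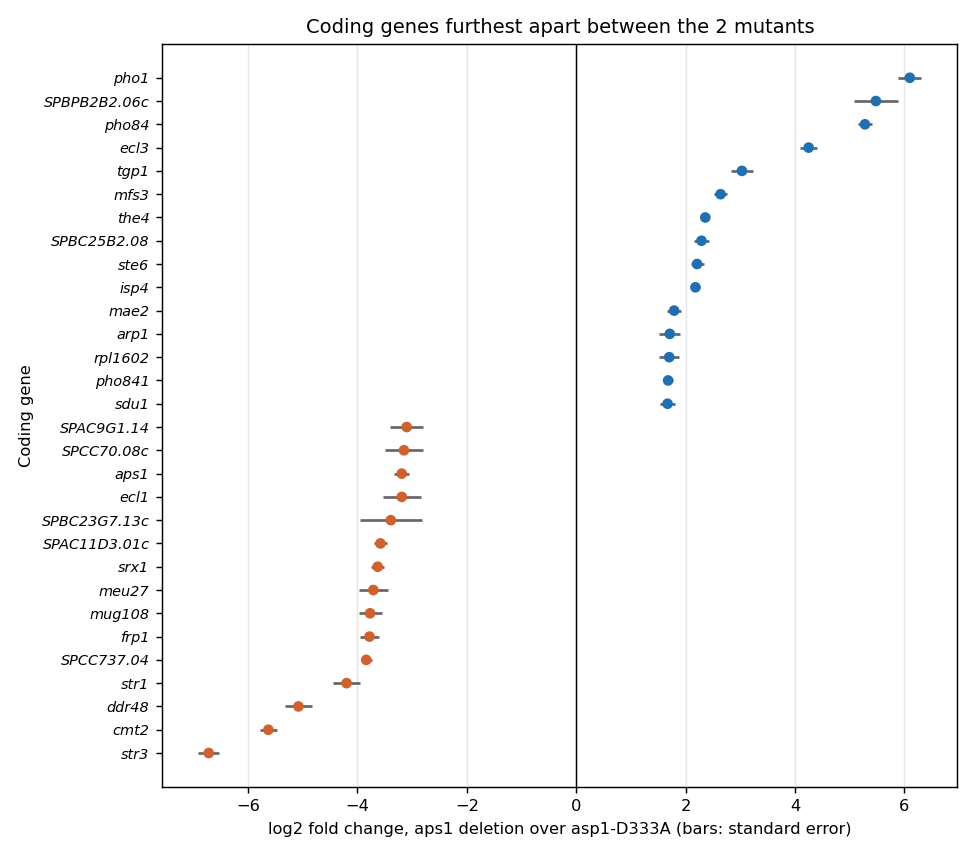
Log2 fold change of the aps1 deletion over asp1-D333A, with its standard error, for the 15 coding genes furthest apart each way under the naming rule. Higher genes run from 1.67 (sdu1) to 6.10 (pho1) and lower genes from -3.10 (SPAC9G1.14) to -6.72 (str3).

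Genes of the machinery that cleaves, polyadenylates and terminates transcripts were higher in the aps1 deletion in 17 of 22 cases, 77.3% against 39% of coding genes, with a median of 0.49. The differences were small beside those of the phosphate genes. The largest was swd22, a WD-repeat protein of the cleavage and polyadenylation factor, at 100, 110 and 111 CPM against 43.5, 42.8 and 39.9 CPM (1.35 ± 0.08, adjusted p = 2.1e-07). The strains did not overlap, and WT at 93.6 CPM was close to the deletion. The poly(A) site selection factor seb1 (0.86 ± 0.08), ctf1 (0.75 ± 0.08) and ppn1 (0.72 ± 0.14), which encodes a phosphatase-associated subunit, followed. The termination factor pcf11 (-0.19), the endonuclease ysh1 (-0.09), rna14 (-0.01), yth1 (0.05) and the phosphatase dis2 (0.05) did not pass. Under upper-quartile scaling 12 of the 22 were higher and 2 lower, and with offsets for transcript length 15 and 2.

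Kinases and phosphatases of the RNA polymerase II tail were divided with TMM scaling. Of 13 genes 4 (30.8%) were higher and 6 (46.2%) lower, against 39% and 28% of all coding genes. Under upper-quartile scaling 1 was higher and 9 lower, and with length offsets 3 and 8. The lower ones with TMM included all 3 genes of the kinase module of TFIIH, from -0.75 to -0.36. Its kinase mcs6 had 99.8, 112 and 116 CPM against 194, 186 and 170 CPM (-0.75 ± 0.08), and csk1, a kinase that activates it, differed by -0.95 ± 0.11. The tail phosphatase fcp1 was lower (-0.41 ± 0.10), and rtr1 (0.58 ± 0.13) and ssu72 (0.43 ± 0.12) were higher. Among 24 genes of the nuclear exosome and its cofactors 8 were higher and 5 lower, shares close to the background, but under upper-quartile scaling 6 were higher and 12 lower. The exonuclease dis3 (0.77 ± 0.14) and mmi1 (0.82 ± 0.07), whose product marks meiotic transcripts for removal, were higher, and cid14, the poly(A) polymerase of the TRAMP complex, was lower (-0.55 ± 0.08). Of 14 tested transcripts under Mmi1 control 7 were lower and 3 higher, with a median of -0.72; examples are rec10 (-1.08 ± 0.14) and mug45 (-1.06 ± 0.20), both under 20 CPM in every library.

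Of 25 genes of the MBF regulon and S phase, 18 (72%) were higher and the median was 0.59. The replication licensing gene cdc18 had 122, 115 and 118 CPM against 45.5, 45.1 and 45.6 CPM (1.38 ± 0.07, adjusted p = 7.9e-08), with narrow groups far apart. The cyclin cig2 (1.39 ± 0.07) and cdt2 (1.38 ± 0.08), an adaptor for degrading replication proteins, were alike in size, and all 6 subunits of the MCM helicase were higher, from 0.26 to 1.51 for mcm6. WT was close to the aps1 deletion for cdc18, at 106 CPM, and for cdt2, at 107 CPM in both. The 7 genes that did not pass included the ribonucleotide reductase subunit suc22 (-0.13) and the MBF subunit res1 (0.15).

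Septation and cell separation showed the same pattern in 18 of 22 genes (81.8%), with a median of 0.50. The glucanase eng1, which digests the septum between daughter cells, had 1010, 971 and 1100 CPM against 526, 530 and 403 CPM (1.08 ± 0.11, adjusted p = 9.3e-06). The strains did not overlap. A second septum glucanase, agn1 (0.86 ± 0.07), was higher, as were the mitotic activator slp1 (1.16 ± 0.12) and the kinesin klp8 (1.10 ± 0.10). The MBF letters ACGCGT stood in 7 of the 25 promoters and in 2.9% of all, and 3 of those 7 genes were higher. The promoter of cdt2 at chrI:2035705-2035904 (reverse), printed as above, holds 3 occurrences of ACGCGT, in capitals.
cdt2: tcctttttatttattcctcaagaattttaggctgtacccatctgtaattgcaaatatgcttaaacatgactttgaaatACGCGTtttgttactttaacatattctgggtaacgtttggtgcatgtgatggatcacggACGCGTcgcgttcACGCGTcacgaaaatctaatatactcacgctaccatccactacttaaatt
Enzymes that build or remodel the wall were higher in 22 of 35 cases and lower in 4, among them chr4, a regulator of glucan synthesis (1.17 ± 0.07), exg3 (1.10 ± 0.11) and, lower, the GTPase rho1 (-0.48 ± 0.11). Flocculins, the adhesins of the cell surface, and their regulators were higher in 11 of 16, including pfl3 (1.64 ± 0.08) and the regulators cbf12 (1.20 ± 0.09) and mbx2 (1.03 ± 0.10). For pfl3 and mbx2 the WT mean lay below both mutants. These lists hold long genes, with a median annotated transcript of 2731 nucleotides for septation and 2871 for flocculins, and with length offsets 14 of 22 septation genes were higher and 1 lower, 12 of 35 wall genes higher and 10 lower, and 8 of 16 flocculin genes higher and 1 lower; the part of length was not tested.

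Of 28 mating and pheromone genes 14 (50%) were higher and 5 (17.9%) lower, against 39% and 28% of all coding genes, with a median of 0.29. Under upper-quartile scaling 12 were higher and 8 lower, with a median of 0.07. With length offsets the numbers were 12 and 6, and the median 0.14. The exchange factor ste6, which activates Ras1, had 29.4, 29.1 and 34.3 CPM against 6.19, 6.44 and 7.45 CPM (2.21 ± 0.12, adjusted p = 1.3e-07). The meiotic inducer mei2 (1.64 ± 0.11), the signalling regulator rgs1 (1.55 ± 0.10) and the M-factor gene mfm2 (1.28 ± 0.08) followed, while the formin fus1 (-0.83 ± 0.12) and isp3 (-1.23 ± 0.13), a spore wall gene, were lower. For ste6, mei2 and mfm2 WT was above both mutants, mei2 reaching 95.6 CPM in WT against 39.7 and 12.8 CPM. The 4 M markers that passed were higher in the deletion, and 1 P marker, map2, was lower (-0.40 ± 0.12); the part of mating type in these differences was not tested. In bulk RNA, fewer cells of a type and less RNA per cell cannot be told apart.

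**Figure D4:**
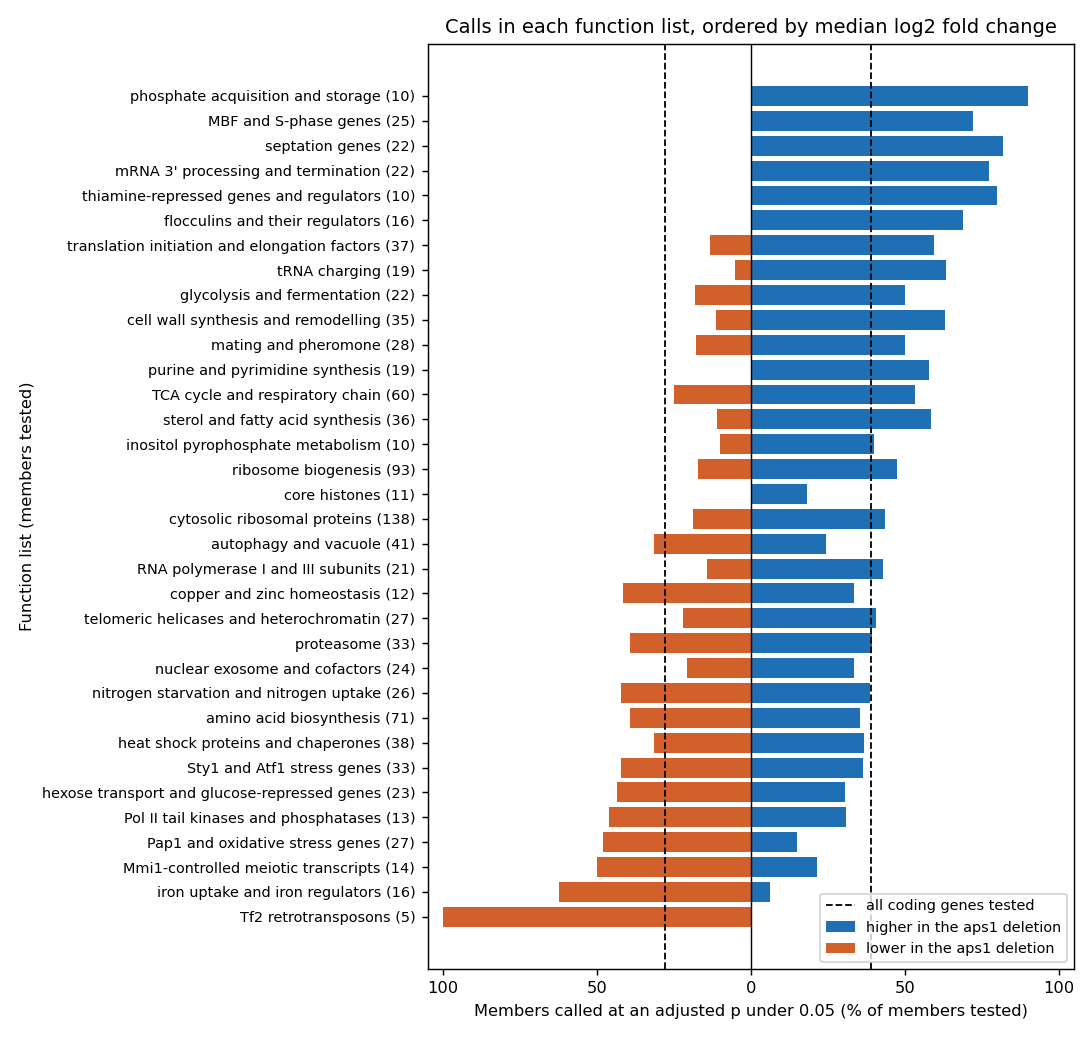
Share of tested members called higher (blue, to the right) or lower (orange, to the left) in the aps1 deletion for each function list, with the number tested in brackets, ordered by median log2 fold change. Dashed lines mark the same shares for all coding genes, 39% and 28%. Phosphate, septation and MBF lists reach past the former, as do others such as thiamine (80%) and 3′ processing (77.3%). The iron list reaches past the latter, as do others such as Tf2 retrotransposons (100%) and transcripts under Mmi1 control (50%).

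Of 37 initiation and elongation factors 22 (59.5%) were higher and 5 (13.5%) lower, against 39% and 28% of all coding genes. Under upper-quartile scaling 19 were higher and 11 lower, and the median of 0.41 became 0.19. The eEF3 gene tef3 had 4090, 4540 and 4600 CPM against 1910, 1820 and 2230 CPM (1.15 ± 0.11, adjusted p = 7.1e-06). The 3 genes for eEF1A were higher, from 1.03 to 1.51, but they are near-identical and reads may be shared among them, and tef101 was at 739 CPM in asp1-D333A replicate 3 against 424 and 390 in its partners. The release factor erf1 was higher (1.09 ± 0.08), and initiation factors such as sui1 (-0.39 ± 0.08) and tif45 (-0.35 ± 0.07) were lower. Of 138 ribosomal protein genes 60 (43.5%) were higher, 17 of them by at least 2-fold, and 26 (18.8%) lower, where all coding genes had 39% and 28%. The gene rpl1602 led with 1240, 1450 and 1410 CPM against 353, 345 and 565 CPM (1.70 ± 0.18), and rpl4102 was lowest (-0.85 ± 0.10). The median of the ribosomal list, 0.08, was -0.15 under upper-quartile scaling, with 43 genes higher and 53 lower. The 60 higher genes of the main fit had a median transcript of 783 nucleotides and the 26 lower ones 407. With length offsets 68 ribosomal protein genes were higher and 10 lower, with a median of 0.22. Ribosome assembly genes were higher in 44 of 93 cases and lower in 16, with fib1, the fibrillarin gene (1.17 ± 0.09), and utp13 (1.17 ± 0.07) at one end and rrp14 (-0.83 ± 0.08) at the other; the list's median of 0.14 was -0.08 under upper-quartile scaling. Among tRNA ligases 12 of 19 were higher, ala1 by 0.97 ± 0.08, and 1 lower, or 9 and 3 under upper-quartile scaling.

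In the Pap1 list of oxidative defence 13 of 27 were lower in the aps1 deletion and 4 higher, with a median of -0.21. The sulfiredoxin gene srx1, which repairs oxidised peroxiredoxin, had 6.50, 5.78 and 5.72 CPM against 70.7, 84.5 and 68.2 CPM (-3.63 ± 0.12, adjusted p = 4.1e-09). It overlaps SPNCRNA.1350 on its own strand. The glutathione transferase gst2 (-2.47 ± 0.18) and the quinone reductase obr1 (-2.19 ± 0.12), both Pap1 targets, were lower, with asp1-D333A replicate 3 highest for gst2, at 849 CPM against 516 and 539 CPM. In the other direction were prr1 (0.95 ± 0.07), a second regulator of the oxidative response, the peroxiredoxin tpx1 (0.60 ± 0.12) and the thioredoxin reductase trr1 (0.53 ± 0.08). The Pap1 letters TTAGTAA stood in 10 of the 27 promoters and in 12.7% of all; 6 of those 10 genes were lower, while of all 636 genes tested with the letters 191 were lower and 243 higher. Shown are srx1 at chrII:377013-377212 (reverse) and gst2 at chrIII:2296106-2296305 (reverse), each with the complement of the letters in capitals.
srx1: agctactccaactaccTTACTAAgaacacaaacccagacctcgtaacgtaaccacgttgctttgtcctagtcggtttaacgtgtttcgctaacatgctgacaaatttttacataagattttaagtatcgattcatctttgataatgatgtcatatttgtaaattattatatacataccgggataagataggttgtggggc
gst2: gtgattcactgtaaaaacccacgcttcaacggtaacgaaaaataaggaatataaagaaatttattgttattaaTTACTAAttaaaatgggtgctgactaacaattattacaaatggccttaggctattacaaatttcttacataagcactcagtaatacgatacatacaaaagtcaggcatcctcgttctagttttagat
A list of the stress kinase Sty1, its factor Atf1, their regulators and stress-response genes had 14 of 33 members lower and 12 higher. Besides ecl1 the lower members included the small heat shock genes hsp9 (-1.78 ± 0.19) and hsp16 (-1.69 ± 0.34). On the higher side was the response regulator mcs4 (1.06 ± 0.07).

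Of 38 chaperone genes 14 (36.8%) were higher and 12 (31.6%) lower, near the 39% and 28% of all coding genes, and under upper-quartile scaling 8 were higher and 21 lower. The Hsp70 gene ssa1 had 37.8, 55.9 and 54.3 CPM against 176, 184 and 318 CPM (-2.20 ± 0.29, adjusted p = 0.00092), and hsp78, a mitochondrial disaggregase, differed by -1.33 ± 0.39. Both were highest in asp1-D333A replicate 3, as was hsp16, at 298 CPM against 127 and 160 CPM; without that library the differences were -1.87 for ssa1, -1.25 for hsp16 and -0.78 for hsp78, all called. The cytosolic Hsp70 ssa2 (0.68 ± 0.16), the mitochondrial Hsp70 ssc1 (0.86 ± 0.19) and 7 of the 8 subunits of the CCT chaperonin, led by cct7 (1.21 ± 0.10), were higher. Of 33 proteasome genes 13 were higher and 13 lower, from rpn10 (-0.84 ± 0.09) to rpn3 (0.54 ± 0.10), but 1 was higher and 19 lower under upper-quartile scaling.

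In central metabolism glycolysis and fermentation were higher in 11 (50%) of 22 genes and lower in 4 (18.2%), against 39% and 28% of all coding genes. Under upper-quartile scaling 8 were higher and 6 lower, and with length offsets 11 and 5. Pyruvate decarboxylase pdc101 had 6000, 7300 and 7310 CPM against 2560, 2450 and 3210 CPM (1.33 ± 0.14, adjusted p = 1.0e-05). Hexokinase 2, hxk2 (1.13 ± 0.11), was higher and the alcohol dehydrogenase adh4 lower (-0.89 ± 0.12). Of 60 genes of the TCA cycle and the respiratory chain 32 (53.3%) were higher and 15 (25%) lower. The malic enzyme mae2 led, with 4760, 5220 and 5510 CPM against 1600, 1650 and 1230 CPM (1.79 ± 0.13), before the NADH dehydrogenase nde1 (1.27 ± 0.09) and cytochrome c1, cyt1 (1.18 ± 0.09). The lowest was cox19, a small assembly factor of cytochrome oxidase (-1.14 ± 0.12). Here too length went with direction, since the 32 higher genes had a median transcript of 1459 nucleotides and the 15 lower ones 694. With length offsets 32 were higher and 8 lower, and under upper-quartile scaling 24 were higher and 21 lower. Of 23 genes of hexose transport and glucose repression 10 (43.5%) were lower and 7 (30.4%) higher, or 12 and 5 under upper-quartile scaling. The lower ones included the invertase inv1 (-1.51 ± 0.13) and the maltase agl1 (-1.08 ± 0.12), and the higher ones the repressors tup11 (0.91), scr1 (0.86) and tup12 (0.72).

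Nutrient uptake and synthesis were mixed in most lists. Of 26 nitrogen genes 11 were lower and 10 higher. All 3 ammonium transporters were lower, from -1.40 for amt3 to -0.57, and so was the amino acid transporter isp5, at 9.03, 8.42 and 9.49 CPM against 33.3, 35.8 and 41.6 CPM (-2.04 ± 0.12). The TOR kinases tor1 (0.76 ± 0.08) and tor2 (0.75 ± 0.07) were higher. Amino acid synthesis had 25 of 71 higher, led by ser2 (1.34 ± 0.08), and 28 lower, led by hom2 (-1.22 ± 0.14). Under upper-quartile scaling 13 were higher and 38 lower, and with length offsets 16 and 35. Among the lower ones were his3 (-0.99), lys1 (-0.53) and arg3 (-0.42), genes often used as auxotrophic markers, whose alleles in these strains the labels do not give. Purine and pyrimidine synthesis was higher in 11 of 19, with ade7 at 1.02 ± 0.07. Under upper-quartile scaling 8 of the 19 were higher and 5 lower, and with length offsets 9 and 4. Sterol and fatty acid synthesis was higher in 21 of 36 with 4 lower, where erg1 (0.65 ± 0.08) and erg32 (-0.86 ± 0.12) marked the ends. For this list upper-quartile scaling gave 11 of the 36 higher and 11 lower. Thiamine-repressed genes and their regulators were higher in 8 of 10 (80%), including the transporter thi9 (1.08 ± 0.10) and the acid phosphatase pho4 (0.69 ± 0.07). The lowest member, at -0.68, did not pass. Under upper-quartile scaling 6 of the 10 were higher, and with total counts 5. Autophagy and vacuole genes had 10 of 41 higher and 13 lower, atg16 being lowest (-1.17 ± 0.15), and the list's median of 0.05 was -0.17 under upper-quartile scaling.

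Chromosome ends and transposons stood apart in size. The subtelomeric helicase tlh1 had 4, 1 and 1 counts in the aps1 deletion against 457, 331 and 399 in asp1-D333A (-7.21 ± 0.34), and tlh2 had 4, 2 and 6 against 563, 506 and 628 (-6.75 ± 0.23). The helicases are near-identical copies, so their reads cannot be assigned to one of them, and both were almost silent in the deletion. WT was low as well, at 0.674 CPM for tlh1 and 1.26 CPM for tlh2. All 5 Tf2 retrotransposons that passed the filter, of 13 listed, were lower, with Tf2-11 at 25, 33 and 25 counts against 408, 443 and 341; they too are near-identical. Among 27 heterochromatin and telomere genes including the helicases 11 (40.7%) were higher and 6 (22.2%) lower, near the 39% and 28% of all coding genes. Under upper-quartile scaling 8 were higher and 13 lower. Higher members included epe1, which limits the spread of heterochromatin (1.12 ± 0.07), and the ARS-binding protein gene cbp1 (1.27 ± 0.08). The RNA interference linker stc1 was lower (-1.25 ± 0.13). Of 11 core histone genes the variants cnp1 (0.82 ± 0.11) and pht1 (0.59 ± 0.07) were higher and the others did not pass, while under upper-quartile scaling 2 were higher and 3 lower.

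Across coding genes the difference moved with annotated transcript length. Over 4849 genes Spearman's correlation of difference with length was 0.271, given as a description because genes share libraries and depth. In 4 classes of equal size, from short to long transcripts, the median difference was -0.16, 0.00, 0.17 and 0.26, and genes lower in the aps1 deletion outnumbered higher ones in the shortest class, 516 against 287, where the longest had 177 against 645. Every library carried the trend of its strain, from 0.231 to 0.270 in the deletion libraries and from -0.290 to -0.213 in those of asp1-D333A, each relative to the mean of all 6. With offsets that remove the trend in each library, 1603 coding genes were called higher and 1642 lower, and the list medians were 1.24 for phosphate, -1.11 for iron, 0.36 for 3′ processing and 0.50 for MBF genes.

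**Figure D5:**
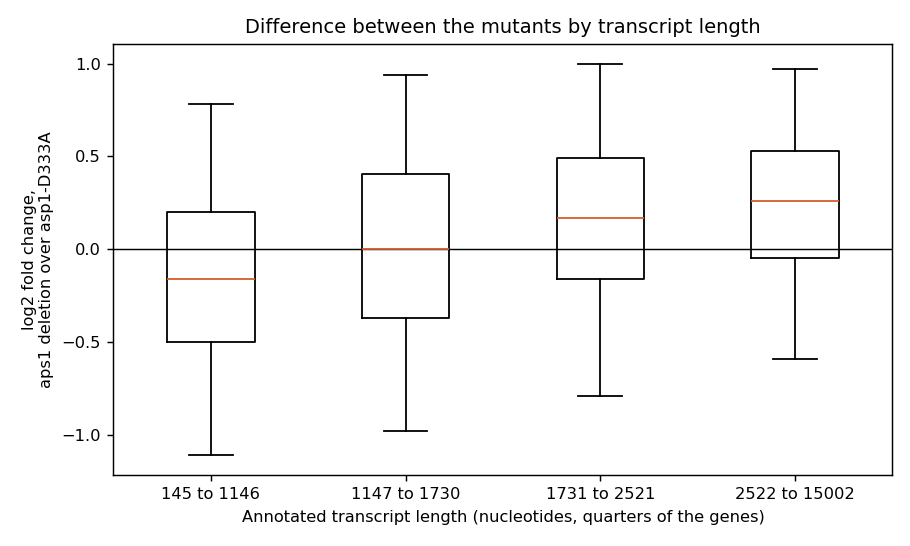
Log2 fold change of the aps1 deletion over asp1-D333A for coding genes with a mean of at least 50 counts, in 4 classes of annotated transcript length (nucleotides); boxes span the middle of the distribution between its quartiles, whiskers the range between the 5th and 95th percentiles, and lines the medians. The medians climb from -0.16 in the shortest class to 0.26 in the longest, and the boxes overlap.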

How the data were processed

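Poly(A)+ RNA from 3 libraries per strain was sequenced as read pairs with a stranded kit, per the labels' protocols. The deposited table holds unnormalized read counts per feature; HISAT2 2.1.0, SAMtools, HTSeq 0.10.0, DESeq2 and the build ASM294v2 are named in the submitters' processing notes. The strand setting of the counting and its handling of reads with several matches are not given in the sources used here, so reads of overlapping, antisense or repeated genes may be misassigned. Of 6986 identifiers, 6837 (97.9%) were matched to the RefSeq annotation of ASM294v3, which gave names, classes, lengths and promoter windows; near-identical copies were found with BLAST 2.17.0 at 95% identity over 100 nucleotides.

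Counts of the 6 mutant libraries were fitted with edgeR 4.0.16 under R 4.3.3: filterByExpr (minimum count 10) kept 6105 features, library sizes were scaled with TMM, and robust quasi-likelihood F tests were adjusted by Benjamini-Hochberg over all features, with calls at 0.05. Printed CPM use TMM-scaled library sizes of the 6 libraries; WT levels, and mutant levels set beside them, come from scaling all 9. The SE is the log2 difference divided by the square root of F. The procedure was tested on simulated counts of this contrast (6069 genes). All of 200 genes changed 2- or 4-fold, drawn from those with a mean of at least 50 counts, were called, with 14 calls among the unchanged. Only those 200 genes were changed, whereas 67.2% of features were called in the real contrast. The simulation therefore does not test the choice of scaling or the length trend. Recovery of weakly expressed genes was not assessed, since none of them was changed. At these depths replicate spread rather than counting error sets the precision of most genes.

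The comparison, gene lists (38) and motifs were chosen with earlier results of these data known, and 10 listed names were dropped by their annotated product; lists are described by counts and medians. Genes were named as the 15 furthest apart each way (called, at least 2-fold, mean of at least 50 counts, no overlap, no near-identical copy) and up to 4 called members each way per list with a mean of at least 50 counts; other phosphate, iron and 3′ processing members, and members named as not passing, were added to describe those lists. Alternatives were other scalings, DESeq2 1.42.0, other filters, all 9 libraries, a replicate block and leaving out each library; length offsets were added after seeing the data. A gene of the septation list, and a motif searched for its product, are not reported here.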

Additional observations from a re-analysis of the deposited data

How the results depend on the processing

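The number of features called was 4105 and ranged from 3622 (without aps1 deletion replicate 2) to 4466 (without asp1-D333A replicate 3) when 1 library was left out; with at least 2-fold difference it was 919 and ranged from 899 to 1000. Coding genes called higher ranged from 1671 to 2144, lower from 1223 to 1503, and with at least 2-fold difference from 421 to 490. DESeq2 called 4049 features, of which 4003 were also called by edgeR. Scaling mattered most for direction: coding genes called higher numbered 1939 with TMM, 1249 with upper-quartile scaling and 1257 with total counts, and those called lower 1391 with TMM and 2165 with upper-quartile scaling. Testing protein-coding genes alone gave 446 calls of at least 2-fold, beside 439 for coding genes in the main fit. In that setting 1661 were called higher and 1673 lower, so that the share higher was 49.8% where it was 58.2% in the main fit.

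Replicate numbers did not pair the libraries: the correlation of deviations was 0.103, 0.050 and -0.145 for numbers 1, 2 and 3. With the replicate block 3855 features were called, 931 of them by at least 2-fold.

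Of the genes named by rule, 5 changed sign under a setting. Log2 differences became -0.03 and -0.01 for pcl1, -0.05 and -0.03 for zip3, and -0.02 and -0.0005 for asp1 under upper-quartile scaling and total counts; sod2 became -0.004 under upper-quartile scaling. With length offsets asp1 was at -0.04 and bgs2 at -0.02. A further 82 combinations of gene and setting lost the call and 1 gained it, out of 3824; none of those values concerned pho1, pho84, tgp1 or str3. Depth limits genes of a few counts, such as shu1, tlh1 and str3 in the aps1 deletion, whose fold changes are imprecise.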
